A study of Mus musculus with 6 samples.

Results

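The constitutive proteasome was represented by 45 of the 35275 genes in the deposited expression table of ID8-KMF mouse ovarian cancer cells. These are the protein-coding genes whose symbol consists of Psm, a letter from a to g and a number, without the inducible immunoproteasome subunits Psmb8, Psmb9 and Psmb10. They were sorted by role into 8 genes for the alpha rings of the core particle, 8 for its beta rings, 6 ATPases and 11 other subunits of the regulatory particle, 5 other activators and inhibitors, and 7 assembly factors. The rule uses symbols and no expression values, but it was set with earlier results of these data known. Of the 45, 43 passed a filter of a mean FPKM of at least 0.5. The other 2 were Psma8, the testis form of an alpha subunit, which was listed at 0 in every library, and Psmb11, the catalytic subunit of the thymus proteasome, which had at most 2 reads in a library.

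The 26S proteasome breaks down proteins tagged with ubiquitin. Its core particle is a barrel of stacked alpha and beta rings, with the proteolytic sites facing an inner chamber and the alpha rings forming a gate. The regulatory particle caps the barrel, binds ubiquitin, removes it and feeds the unfolded substrate inward through a ring of ATPases, while dedicated chaperones build both particles. In mammalian cells the genes of these subunits are known to be induced together by NFE2L1 when the proteasome is inhibited.

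The 6 libraries hold poly-A-selected RNA of ID8-KMF cells, which derive from ID8 cells of strain C57Bl6/J that had been passaged in mice. The cells of all 6 libraries lacked Rgnef (Rgnef-/-). The 3 knockout libraries came from these cells as they were, and the 3 GFP-Rgnef libraries from knockout cells given GFP-Rgnef by lentivirus. Rgnef, encoded by Arhgef28, is a guanine nucleotide exchange factor, and both kinds of cell were subconfluent on dishes with 0.2% Matrigel. The comparison asks which RNAs differ between cells without and with the re-expressed protein, so virus, tag and Rgnef cannot be told apart, and the parental line was not analysed here. Whether the cells are 1 clone and whether the libraries came from separate cultures is not stated in the labels, and p-values therefore refer to the spread of these libraries, which may be technical.

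Arhgef28 had 0.116, 0.11 and 0.134 FPKM in knockout libraries 1, 2 and 3, against 57.2, 50.9 and 50.02 FPKM in GFP-Rgnef libraries 1, 2 and 3, as labelled. The markers of the labelled cells (Krt8, Krt18, Krt19, Msln, Wt1 and Upk3b) were all above 1 FPKM in every library, with sums of 1545 to 2476 FPKM in knockout and 1649 to 2458 FPKM in GFP-Rgnef libraries. Of these markers Krt18 fell (log2 difference -0.51, SE 0.0795, limma adjusted p = 0.00625). Upk3b had 319, 318 and 116 FPKM in knockout libraries against 119.5, 115 and 42.6 FPKM in GFP-Rgnef libraries and did not pass (limma adjusted p = 0.0878). Krt8, Krt19, Msln, Wt1 and Upk3b were lowest in library 3 of each group, and Krt18 only in that of the GFP-Rgnef group. The part of such marker differences in the results on the proteasome was not tested. The 5 immune markers summed to at most 0.0188 FPKM in a library and the 3 endothelial markers to at most 0.247 FPKM. The depths implied by the FPKM were 15898965 to 17977069 reads, and the tested members had from 152 (Psmg3) to 13547 (Psmd2) reads in a library. Counting error alone is therefore larger for Psmg3 and the other assembly factors than for the core subunits.

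Of the 43 proteasome genes tested, 15 fell, 1 rose and 27 did not pass the test in the knockout libraries (limma on log2(FPKM + 1), adjusted p below 0.05), while 5.34% of all 11500 genes tested fell and 8.04% rose. The median log2 difference of the members, knockout minus GFP-Rgnef, was -0.21, against -0.02 over all genes tested. The 15 that fell were 13.1% to 23.9% lower in mean FPKM. All 38 tested members outside chromosomes 7 and 9 had a difference below 0, from -0.39 to -0.05, and all 5 on those chromosomes one above 0. Over all genes tested, 53.2% had a difference below 0. That share was 59.3% outside chromosomes 7 and 9, 12.0% on chromosome 7 and 9.86% on chromosome 9. Among the 34 members with a mean of at least 50 FPKM, 14 fell and 1 rose, against 7.26% and 8.45% of the 2591 genes at that level.

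The 3 knockout libraries all lay below the 3 GFP-Rgnef libraries for 29 of the 43 members and all above for 3, and the groups overlapped for 11. Each of these non-overlapping orders held for 16.7% of all genes tested. Leaving out 1 library changed how many members were called far more than their median difference, which stayed between -0.24 and -0.18. With knockout 1 left out 5 members fell, and with knockout 2 left out 4 did. Omitting GFP-Rgnef 1 gave 5, omitting GFP-Rgnef 2 gave 2, and omitting either library numbered 3 gave 11. Calls over all 11500 genes dropped too, from 614 that fell. There were 378, 214 and 578 without knockout 1, 2 and 3, and 305, 198 and 530 without GFP-Rgnef 1, 2 and 3. Psmb3 and Psmd3 fell, and Psmd8 rose, with any 1 library left out.

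**Figure D1:**
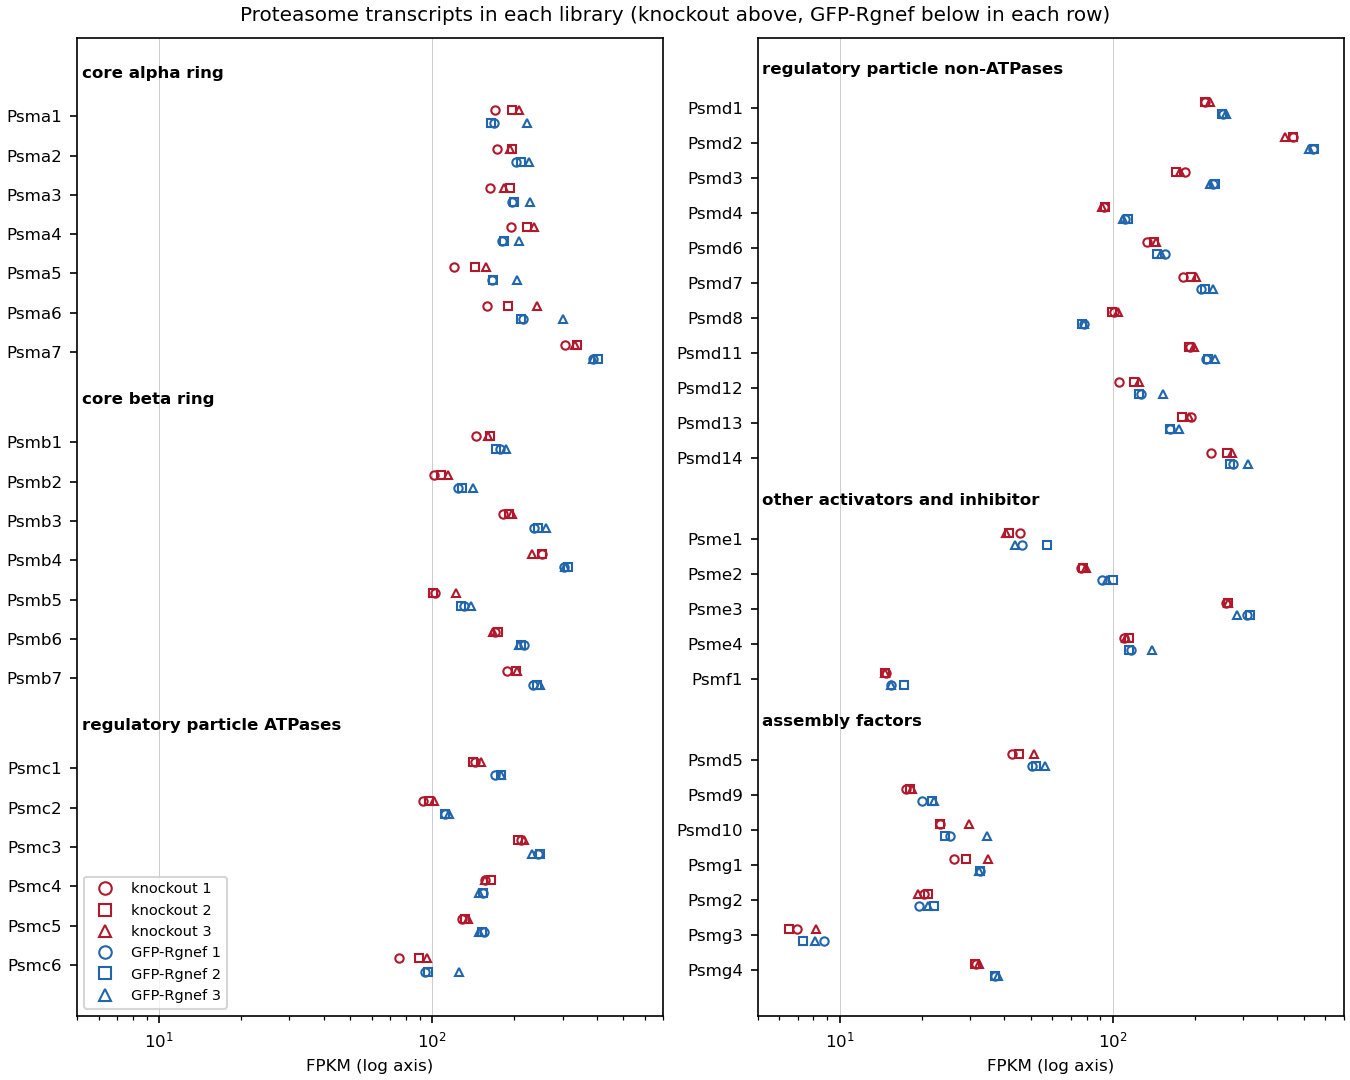
FPKM of the 43 tested members in every library on a log axis, with the 3 knockout libraries in the upper and the 3 GFP-Rgnef libraries in the lower line of each row. For most subunits the knockout points lie to the left of the GFP-Rgnef points, and for Psmd8, Psmd13 and Psmc4 to the right without overlap.

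**Figure D2:**
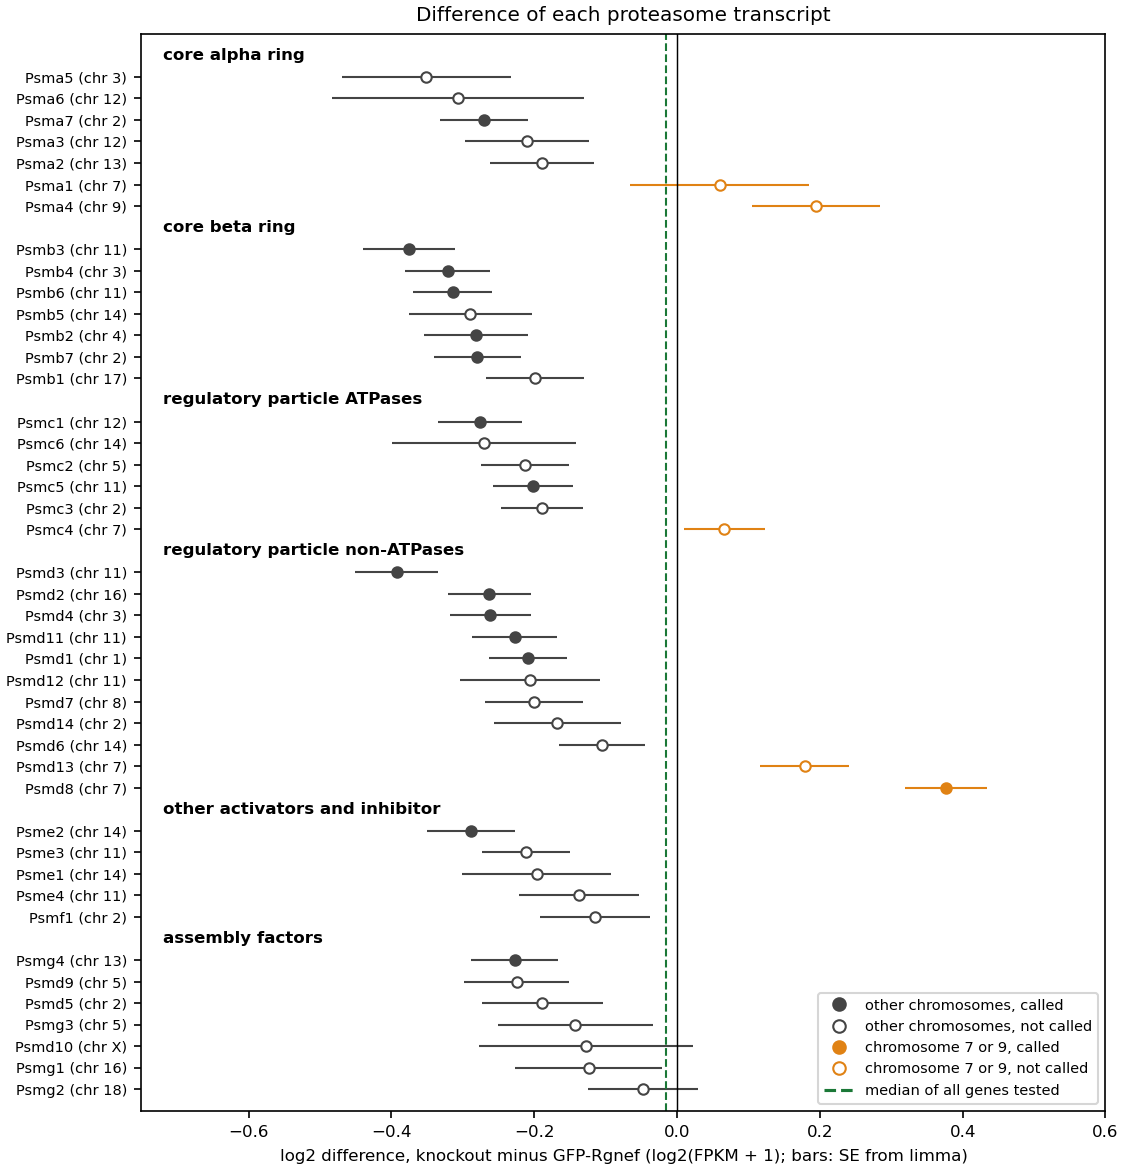
Log2 difference (knockout minus GFP-Rgnef) of each tested member with its SE from limma, grouped by role, with filled points at adjusted p below 0.05. The 5 members on chromosomes 7 and 9 (orange) are the ones to the right of 0, and the dashed line is the median of all genes tested, -0.02.

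In the beta rings, which carry the active sites, 5 of 7 tested genes fell. All 7 tested members had knockout libraries below all GFP-Rgnef libraries, with differences from -0.38 to -0.20. Psmb6, the caspase-like catalytic subunit, had 170.4, 174 and 167 FPKM in knockout libraries 1, 2 and 3, against 217, 211 and 208 FPKM in GFP-Rgnef libraries 1, 2 and 3. It fell by 19.7% in mean FPKM (log2 difference -0.31, SE 0.0548, limma adjusted p = 0.0091). Psmb7, the trypsin-like subunit, had 188, 203 and 205 FPKM in knockout libraries against 233, 243 and 248 FPKM in GFP-Rgnef libraries and fell too (log2 difference -0.28, SE 0.0611, limma adjusted p = 0.0218). Part of the exons of Psmb7 overlaps Nek6 on the opposite strand, which stood at 20.1% of its level, and the handling of strand was not given in the sources used here. Psmb5, the chymotrypsin-like subunit and the main target of clinical proteasome inhibitors, had 102, 101 and 122 FPKM in knockout libraries against 131, 127 and 139 FPKM in GFP-Rgnef libraries. Its groups did not overlap either, but it did not pass the test (log2 difference -0.29, SE 0.0857, limma adjusted p = 0.0609), with knockout library 3 above the other knockout libraries.

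Promoter sequences of the members are shown because most members differ in the same direction. RefSeq windows of GRCm38.p6, running from 250 bases before to 50 after a start site, matched 37 of the 45 members, 36 of them tested. The core letters of the antioxidant response element bound by NFE2L1 and NFE2L2, TGACNNNGC, were searched on both strands. They occurred in 6 of the 36 tested members with a window (16.7%), against 17.2% of the 8791 tested genes and 12.4% of all 32851 windows. Among members that fell 1 of 12 held it (8.33%), and among those not called 5 of 23 (21.7%). The 6 were Psmb5, Psmb6, Psmc6, Psmd9, Psmd12 and Psme4. The catalytic genes Psmb5 (chr14:54617996-54618145, minus strand) and Psmb6 (chr11:70525207-70525356, plus strand) hold it, and the 150 bases before their start sites are printed with the match in capitals.
Psmb5: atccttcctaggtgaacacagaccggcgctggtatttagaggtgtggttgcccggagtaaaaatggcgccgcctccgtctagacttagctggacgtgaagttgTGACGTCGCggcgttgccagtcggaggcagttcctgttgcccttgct
Psmb6: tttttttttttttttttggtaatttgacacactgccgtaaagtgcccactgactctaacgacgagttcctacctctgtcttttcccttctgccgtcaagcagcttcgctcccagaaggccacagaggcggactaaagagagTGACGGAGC

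In these windows the element begins 47 bases before the start of Psmb5 and 9 bases before that of Psmb6. A further 4 motifs were searched after the windows had been seen. CCGGAAG, the core bound by ETS factors, occurred in 14 of the 36 (38.9%), against 21.9% of the tested genes and 8.86% of all windows. Of all genes with a window 9.93% held it. Among members that fell 4 of 12 held it (Psmc1, Psmd2, Psmd4 and Psmd11), and among those not called 10 of 23. In Psmd4, which is not printed, it begins 125 bases before the start, on the strand of the gene. CCAAT occurred in 33.3% of the 36, against 43.1% of tested genes, 41.1% of genes with a window and 37.4% of all windows. GGGCGG occurred in 61.1%, against 71.6% of tested genes, 38.2% of genes with a window and 35.7% of all windows. TGACGTCA occurred in 0 of the 36, against 3.88% of tested genes, 2.03% of genes with a window and 1.79% of all windows. The overlap of motifs with each other was not counted separately, and a match describes letters and not a bound site. Psmc1 (chr12:100110052-100110201, plus strand), Psmd2 (chr16:20651502-20651651, plus strand) and Psmd11 (chr11:80428465-80428614, plus strand) are shown as subunits of the regulatory particle that fell and hold CCGGAAG, here in capitals as its reverse complement close to the start.
Psmc1: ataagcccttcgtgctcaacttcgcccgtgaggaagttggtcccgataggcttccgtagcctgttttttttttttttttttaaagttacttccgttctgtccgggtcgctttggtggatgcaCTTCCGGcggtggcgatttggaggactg
Psmd2: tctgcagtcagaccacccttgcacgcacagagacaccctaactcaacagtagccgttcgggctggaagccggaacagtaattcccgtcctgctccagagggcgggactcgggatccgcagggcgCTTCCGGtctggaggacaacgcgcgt
Psmd11: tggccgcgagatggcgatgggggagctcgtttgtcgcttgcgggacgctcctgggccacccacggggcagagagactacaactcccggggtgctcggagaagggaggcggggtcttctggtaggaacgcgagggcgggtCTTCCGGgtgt

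Among the beta subunits without an active site, Psmb3 (ENSMUSG00000069744, GRCm38 chromosome 11, 97703399 to 97713500, plus strand) had the largest difference. It had 182, 191 and 197 FPKM in knockout libraries 1, 2 and 3, against 236, 243 and 261 FPKM in GFP-Rgnef libraries 1, 2 and 3 (log2 difference -0.38, SE 0.0644, limma adjusted p = 0.00853). Psmb4 had 252, 253 and 233 FPKM in knockout libraries against 303, 313 and 306 FPKM in GFP-Rgnef libraries (log2 difference -0.32, SE 0.0593, limma adjusted p = 0.0112). In both genes the highest knockout library stood well below the lowest GFP-Rgnef library. Psmb2 had 102, 108 and 114 FPKM in knockout libraries against 124, 129 and 141 FPKM in GFP-Rgnef libraries and passed more narrowly (log2 difference -0.28, limma adjusted p = 0.0401). Psmb1 averaged 156 ± 10.1 FPKM in knockout libraries and 179 ± 7.16 FPKM in GFP-Rgnef libraries (SD, n = 3 each) and did not pass (limma adjusted p = 0.0989).

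In the alpha rings, which form the gate, 1 of 7 tested members fell, and the libraries spread more. Psma7, the most abundant core subunit, had 306, 340.0 and 333 FPKM in knockout libraries 1, 2 and 3, against 389, 403 and 388 FPKM in GFP-Rgnef libraries 1, 2 and 3. Its knockout libraries all lay lower (log2 difference -0.27, SE 0.0619, limma adjusted p = 0.0257). Psma5 and Psma6 had larger or similar differences, -0.35 and -0.31, that did not pass (limma adjusted p = 0.0913 and 0.305). Psma6 ranged widely within each group, with 158, 190.2 and 242 FPKM in knockout libraries against 216, 212 and 302 FPKM in GFP-Rgnef libraries. Psma2 averaged 187 ± 12.7 FPKM in knockout libraries and 214 ± 11.2 FPKM in GFP-Rgnef libraries, and Psma3 179 ± 15.5 FPKM in knockout libraries and 208 ± 17.2 FPKM in GFP-Rgnef libraries (SD, n = 3 each). For Psma2, Psma3 and Psma5 the groups did not overlap. Psma1 on chromosome 7 and Psma4 on chromosome 9 differed from the rest of the ring in direction and are described with their chromosomes.

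The ATPase ring of the regulatory particle unfolds substrates. Of its 6 members 2 fell, with differences from -0.28 to 0.07. Psmc1, whose tail helps to open the core's gate, had 144, 141 and 151 FPKM in knockout libraries 1, 2 and 3, against 170.3, 179 and 179 FPKM in GFP-Rgnef libraries 1, 2 and 3 (log2 difference -0.28, SE 0.0587, limma adjusted p = 0.0198). Psmc5 had 129, 132 and 135 FPKM in knockout libraries against 154, 152 and 149 FPKM in GFP-Rgnef libraries and was close to the threshold (limma adjusted p = 0.0489). In both, no library of one group reached the other. The 2 most abundant ATPases were Psmc3, with 212 ± 5.11 FPKM in knockout libraries and 241 ± 8.96 FPKM in GFP-Rgnef libraries, and Psmc1 (SD, n = 3 each). Psmc3 did not pass (log2 difference -0.19, limma adjusted p = 0.0694). Psmc2 and Psmc6 had differences of -0.21 and -0.27 and did not pass either (limma adjusted p = 0.0582 and 0.213).

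Of the 11 non-ATPase subunits of the regulatory particle 5 fell and 1 rose. Psmd3 (ENSMUSG00000017221, GRCm38 chromosome 11, 98682554 to 98695979, plus strand), a structural subunit of the lid, had the lowest difference of all members. It had 183, 170.5 and 176 FPKM in knockout libraries 1, 2 and 3, against 233, 237 and 226 FPKM in GFP-Rgnef libraries 1, 2 and 3, a fall of 23.9% in mean FPKM (log2 difference -0.39, SE 0.0583, limma adjusted p = 0.00509). Psmd2, a scaffold that docks shuttle receptors and the most abundant member, had 457, 456 and 425 FPKM in knockout libraries against 539.8, 544 and 521 FPKM in GFP-Rgnef libraries (log2 difference -0.26, SE 0.0581, limma adjusted p = 0.0228). Psmd4, a ubiquitin receptor, had 93.0, 93.2 and 90.8 FPKM in knockout libraries against 110.5, 114 and 108 FPKM in GFP-Rgnef libraries (log2 difference -0.26, SE 0.0565, limma adjusted p = 0.0209). In these genes the libraries within a group were tight and the groups far apart relative to that spread. Psmd1, the other large scaffold, averaged 220.5 ± 4.86 FPKM in knockout libraries and 255 ± 4.34 FPKM in GFP-Rgnef libraries (SD, n = 3 each; limma adjusted p = 0.0403). Psmd11, a lid subunit, averaged 193 ± 4.49 FPKM in knockout libraries and 226 ± 9.81 FPKM in GFP-Rgnef libraries (SD, n = 3 each; limma adjusted p = 0.0407). With any 1 library left out, neither Psmd1 nor Psmd11 passed (limma adjusted p from 0.0519 to 0.136).

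A further 5 genes of this class did not pass the test, Psmd13 among them. Psmd14, the deubiquitinase of the lid, had 228, 262 and 272 FPKM in knockout libraries against 275, 268 and 313 FPKM in GFP-Rgnef libraries, and the groups overlapped (log2 difference -0.17, SE 0.0892, limma adjusted p = 0.263). Its partner Psmd7 had a difference of -0.20 (limma adjusted p = 0.093). The lid subunits Psmd6 and Psmd12 differed by -0.11 and -0.21 without passing (limma adjusted p = 0.301 and 0.212).

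Psmd8 was the one member that rose. It encodes a lid subunit on chromosome 7 (ENSMUSG00000030591, GRCm38, 29174188 to 29180701, minus strand) and had 100.5, 99.2 and 104 FPKM in knockout libraries 1, 2 and 3, against 78.2, 76.8 and 78.5 FPKM in GFP-Rgnef libraries 1, 2 and 3. All knockout libraries lay above all GFP-Rgnef libraries, with a mean 30.2% higher (log2 difference 0.38, SE 0.0572, limma adjusted p = 0.00547). The other members on chromosome 7 were Psmd13, Psmc4 and Psma1, and Psma4 was the only one on chromosome 9. Psmd13, a lid subunit, had 193, 179 and 190.4 FPKM in knockout libraries against 161, 161 and 174 FPKM in GFP-Rgnef libraries (log2 difference 0.18, limma adjusted p = 0.0999). Psmc4, an ATPase, had 156, 165 and 156 FPKM in knockout libraries against 153, 153 and 149 FPKM in GFP-Rgnef libraries (log2 difference 0.07, limma adjusted p = 0.506). For Psmd13 and Psmc4 the groups did not overlap, although neither passed. Psma4 had 195, 222 and 237 FPKM in knockout libraries against 179.5, 184 and 208 FPKM in GFP-Rgnef libraries and Psma1 170.3, 197 and 208 FPKM in knockout libraries against 168, 165 and 222 FPKM in GFP-Rgnef libraries, with overlap in both (limma adjusted p = 0.2 and 0.812).

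The direction of these 5 members was that of their chromosomes. The 819 tested genes of chromosome 7 had a median log2 difference of 0.24 and the 639 of chromosome 9 one of 0.28, against -0.04 for the 10042 genes elsewhere. On chromosomes 7 and 9, 32.2% of tested genes rose and 1.03% fell. Elsewhere 4.53% rose and 5.96% fell, and of the 38 members there, all with differences below 0, 15 fell. When each chromosome's median deviation was taken from every library, Psma1, Psmc4, Psma4 and Psmd13 changed sign, to -0.19, -0.19, -0.10 and -0.07, and Psmd8 stood at 0.13. None of the 5 passed the test then (limma adjusted p from 0.101 to 0.578), and 8 of the other 38 still fell. These 8 were Psma7, Psmb3, Psmb4, Psmb6, Psmb7, Psmc1, Psmd3 and Psmd4. Of all 11500 genes, 384 fell and 491 rose after this centring, against 614 and 925 without it. The median of the 38 moved from -0.21 to -0.18. On chromosome 11 Psmd3 moved from -0.39 to -0.33, Psmb3 from -0.38 to -0.31 and Psmb6 from -0.31 to -0.25. Psmc5 and Psmd11, on the same chromosome, did not pass then (limma adjusted p = 0.212 and 0.176). The difference between members on and off these chromosomes was not tested.

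**Figure D3:**
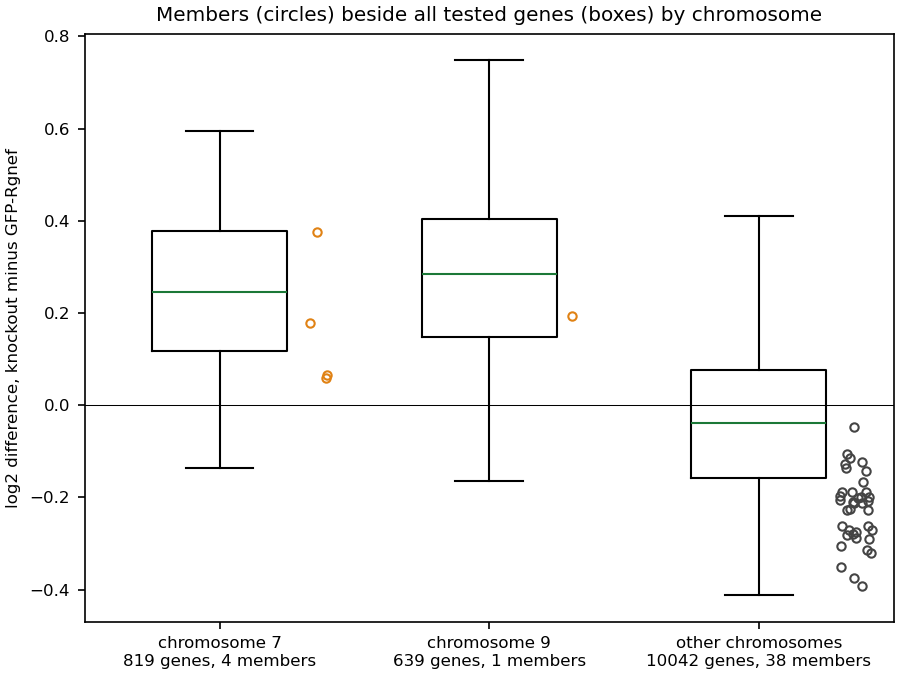
Log2 differences (knockout minus GFP-Rgnef) of all tested genes on chromosome 7, on chromosome 9 and elsewhere (boxes: quartiles and median; whiskers: percentiles 5 and 95), with the members as circles to the right of each box. The 5 members on chromosomes 7 and 9 lie above 0, and the 38 others below 0, where the box of all genes elsewhere is centred at -0.04.

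Psme1 to Psme4, which encode activators that can replace the regulatory particle, had differences from -0.29 to -0.14, and with Psmf1 counted 1 of the 5 genes of this class fell. Psme2, a subunit of the interferon-inducible PA28 cap, had 76.4, 77.9 and 79.3 FPKM in knockout libraries 1, 2 and 3, against 91.5, 99.8 and 94.9 FPKM in GFP-Rgnef libraries 1, 2 and 3 (log2 difference -0.29, SE 0.0613, limma adjusted p = 0.0198). Its near-identical copy Psme2b could share reads with it. Its partner Psme1 overlapped between groups, with 45.6, 41.5 and 40.7 FPKM in knockout libraries against 46.5, 57.1 and 43.9 FPKM in GFP-Rgnef libraries (limma adjusted p = 0.261). Psme3, the nuclear PA28 subunit and the most abundant of this class, had 259, 264 and 264 FPKM in knockout libraries against 309, 317 and 285 FPKM in GFP-Rgnef libraries and missed the threshold (log2 difference -0.21, limma adjusted p = 0.0571). Psme4, the nuclear activator PA200, averaged 112 ± 2.17 FPKM in knockout libraries and 124 ± 13.9 FPKM in GFP-Rgnef libraries (SD, n = 3 each; limma adjusted p = 0.333). Psmf1, an inhibitor of the core in vitro, averaged 14.7 ± 0.0864 FPKM in knockout libraries and 16.0 ± 1.06 FPKM in GFP-Rgnef libraries (SD, n = 3 each; limma adjusted p = 0.378).

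The assembly factors were the least abundant class, at 7.66 to 49.7 FPKM, and had the smallest median difference, -0.14. After chromosome centring it was -0.17, and those of the other activators and inhibitor (-0.14) and the non-ATPase subunits (-0.145) were smaller in size. Of the 7 assembly factors 1 fell. Psmg4, which with Psmg3 helps to build the alpha ring, had 31.5, 31.3 and 32.2 FPKM in knockout libraries 1, 2 and 3, against 36.9, 36.8 and 38.0 FPKM in GFP-Rgnef libraries 1, 2 and 3 (log2 difference -0.23, SE 0.0615, limma adjusted p = 0.0457). Its groups did not overlap and its libraries were close to each other, but it had only 277 to 337 reads in a library. It did not pass with voom on recovered reads (voom adjusted p = 0.12) or after chromosome centring (limma adjusted p = 0.0711). Psmg3 had only 6.98, 6.52 and 8.21 FPKM in knockout libraries against 8.78, 7.33 and 8.13 FPKM in GFP-Rgnef libraries (limma adjusted p = 0.444). Psmg1 and Psmg2, the other pair of alpha ring chaperones, differed by -0.12 and -0.05 (limma adjusted p = 0.492 and 0.749). Among the chaperones of the regulatory particle, Psmd9 differed by -0.22 without overlap and Psmd5, the most abundant assembly factor, by -0.19 with overlap (limma adjusted p = 0.0831 and 0.188). Psmd5 averaged 46.4 ± 4.41 FPKM in knockout libraries and 53.0 ± 3.0 FPKM in GFP-Rgnef libraries (SD, n = 3 each). Psmd10, also known as the oncoprotein gankyrin, had 23.2, 23.3 and 29.8 FPKM in knockout libraries against 25.2, 24.2 and 34.6 FPKM in GFP-Rgnef libraries, and the number 3 libraries were the high ones in both groups (limma adjusted p = 0.646).

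FPKM are scaled by length, so levels can be set beside each other as far as the submitters' gene lengths hold. The beta subunits stood at 119.5 to 277 FPKM over all 6 libraries, the alpha subunits at 159.7 to 360.0 FPKM, the ATPases at 96.1 to 227 FPKM and the other regulatory subunits at 89.6 to 490.5 FPKM. Psmd2 was highest, followed by Psma7, Psme3, Psmb4 and Psmd14, and Psmg3 was lowest. The means of Psme3, Psmb4 and Psmd14 in knockout libraries, 262, 246 and 254 FPKM, differed by less than the SD of 23.5 FPKM of Psmd14. The range of levels within a ring was thus wider than the differences of its subunits between knockout and GFP-Rgnef libraries. Some subunits of a ring stood closer to each other than that, such as Psmb7 and Psmb3, at 220.0 and 218.4 FPKM over all 6 libraries.

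Summed over the 14 core subunits tested, the knockout libraries held 2426, 2672 and 2753 FPKM, against 2939.8, 2979 and 3268 FPKM in the GFP-Rgnef libraries. The 17 regulatory particle subunits summed to 2889.6, 2951 and 3008 FPKM in knockout and 3289.7, 3303 and 3401 FPKM in GFP-Rgnef libraries. In both sums the groups did not overlap, at ratios of means of 0.855 and 0.885. The core sum over the regulatory sum was 0.839, 0.905 and 0.915 in knockout libraries and 0.894, 0.902 and 0.961 in GFP-Rgnef libraries, which overlap. In a bulk sample, less RNA per cell and fewer cells that express a gene cannot be told apart.

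Members also differed between libraries of the same group. The number 3 libraries stood apart on the second principal component of all tested genes, which held 25.2% of the variance. Relative to the mean of libraries 1 and 2, library 3 was higher for 33 of the 43 members in the knockout group and for 28 in the GFP-Rgnef group, with medians of 0.06 and 0.05 on the log2 scale. Of all 11500 genes tested, 6225 were higher in library 3 of the knockout group and 5886 in that of the GFP-Rgnef group. The medians over these genes were 0.018 and 0.0068. The alpha ring had the largest of these shifts with GFP-Rgnef, with a median of 0.20 (0.18 in knockout), and the other activators the lowest, -0.08 (-0.01 in knockout). Psma6 was highest in both, at 0.48 in knockout and 0.50 with GFP-Rgnef, and Psmd10, Psmc6 and Psma5 also lay above 0.2 in both. Across the 43 members the shifts of the knockout and GFP-Rgnef groups had a Pearson r of 0.698 and a Spearman rank correlation of 0.692, and across all 11500 genes a Pearson r of 0.552. These values describe genes that share the same libraries. Psma6, Psmd10, Psma1, Psmc6 and Psma5, which had the large shifts, were not called. With the number 3 libraries of both groups left out, 21 members fell and 2 rose, the added ones being Psma5, Psma6, Psmb5, Psmc2, Psmc3 and Psme3 among those that fell and Psmd13 among those that rose. Calls over all 11500 genes also grew then, to 1048 that fell and 1273 that rose, from 614 and 925.

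**Figure D4:**
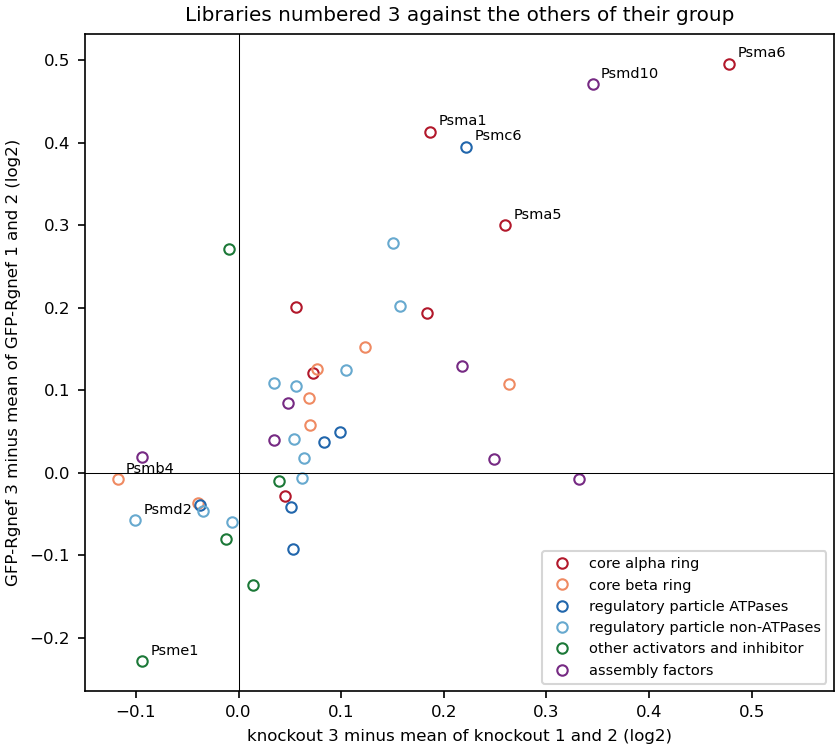
For each tested member, library 3 minus the mean of libraries 1 and 2 on the log2(FPKM + 1) scale, in the knockout group (horizontal) and the GFP-Rgnef group (vertical), coloured by role. Psma6, Psmd10, Psmc6, Psma1 and Psma5 lie far to the upper right, and Psme1 and Psmd2 lie to the lower left.

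Subunits and partners with other names were examined as 3 lists with 21 genes tested, of which 4 fell, against 5.34% of all genes tested. These lists, too, were chosen with earlier results known, and a count of 1 in a list is near that share. In the other direction 0 passed by limma or voom, and 0 had an unadjusted p below 0.05. Their median difference was -0.18. Among subunits and assembly factors not named Psm, 2 of 3 tested fell. Adrm1, a ubiquitin receptor of the regulatory particle, had 109.9, 102 and 112 FPKM in knockout libraries 1, 2 and 3, against 141, 139.9 and 138 FPKM in GFP-Rgnef libraries 1, 2 and 3 (log2 difference -0.37, SE 0.06, limma adjusted p = 0.00713). Pomp, the chaperone of beta ring assembly, had 126, 135 and 141 FPKM in knockout libraries against 157, 157 and 177 FPKM in GFP-Rgnef libraries (log2 difference -0.28, SE 0.0737, limma adjusted p = 0.0397). Adrm1 and Pomp thus had no overlap between groups, and Sem1, the small lid subunit, overlapped (log2 difference -0.21, limma adjusted p = 0.231). Of 10 enzymes and adaptors bound to the proteasome 1 fell, Zfand2a, a stress-induced zinc finger protein, with 28.5, 27.7 and 29.2 FPKM in knockout libraries against 35.1, 39.2 and 40.7 FPKM in GFP-Rgnef libraries (log2 difference -0.41, SE 0.0759, limma adjusted p = 0.0109). The median of that list was -0.07.

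Of 8 genes that process or control NFE2L1 1 fell, Vcp, the ATPase that extracts ubiquitinated proteins from membranes and complexes, with 498, 469 and 439 FPKM in knockout libraries against 573, 598 and 540.2 FPKM in GFP-Rgnef libraries (log2 difference -0.28, SE 0.0695, limma adjusted p = 0.0323). Nfe2l1 itself, named after its values were seen, averaged 104 ± 6.42 FPKM in knockout libraries and 99.4 ± 3.64 FPKM in GFP-Rgnef libraries (SD, n = 3 each), and the groups overlapped (log2 difference 0.06, SE 0.068, limma adjusted p = 0.645). Adrm1 kept its call with any 1 library left out, while Pomp, Zfand2a and Vcp each lost theirs without at least 1 library, at limma adjusted p up to 0.145.

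**Figure D5:**
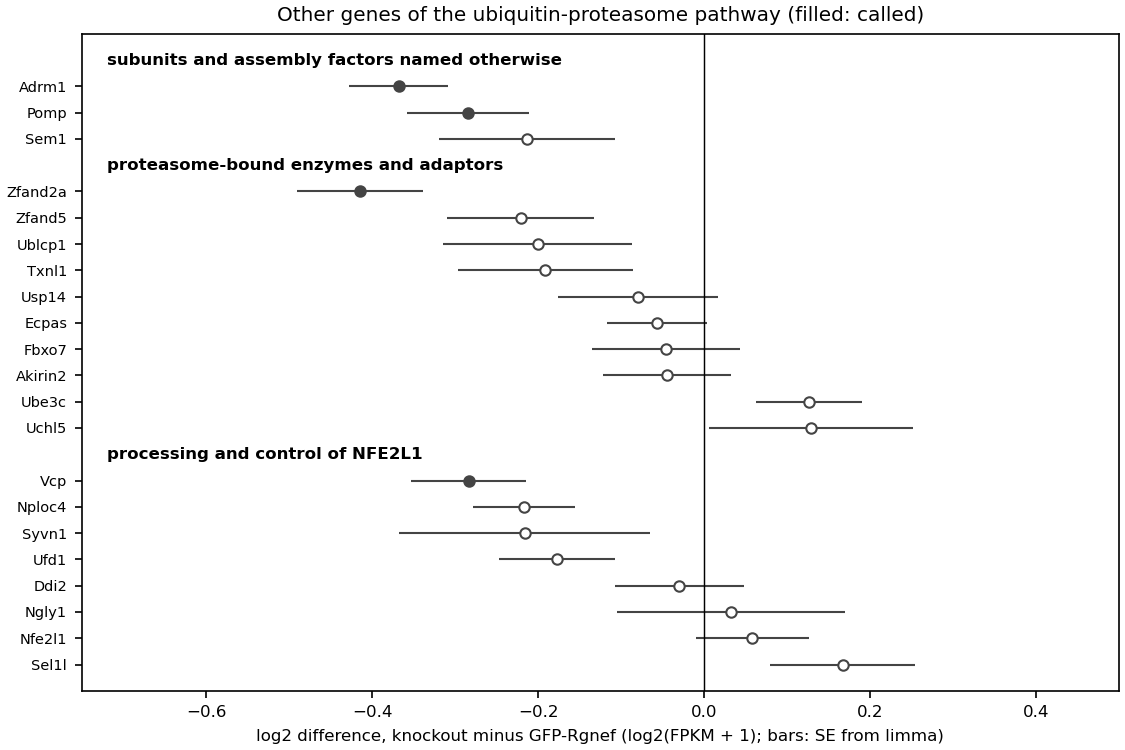
Log2 difference (knockout minus GFP-Rgnef) with its SE for the 21 tested genes of the 3 pathway lists, with filled points at adjusted p below 0.05. Adrm1, Pomp, Zfand2a and Vcp are the filled ones and lie below 0, and Nfe2l1 lies at 0.06.

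The inducible subunits that replace the catalytic ones in the immunoproteasome were nearly silent apart from Psmb10. Psmb8 had at most 2 reads and Psmb9 at most 1 read in any library. Psmb10 had 13.9, 14.3 and 13.6 FPKM in knockout libraries against 19.6, 20.6 and 13.6 FPKM in GFP-Rgnef libraries, with GFP-Rgnef library 3 among the knockout values (log2 difference -0.32, SE 0.142, limma adjusted p = 0.182). Its constitutive counterpart Psmb7 stood far above it in every library.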

How the data were processed

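Groups and replicate numbers came from the labels. The authors deposited 1 table of FPKM (fragments per kilobase of transcript, scaled to depth) with 35275 Ensembl genes in 6 libraries, and every column of values was used. The submitters' processing notes name CASAVA 1.8, TopHat2 2.0.9, DESeq2 and build mm10. What each did, the annotation and whether strand was used is not given in the sources used here. Gene symbols and positions were taken from GENCODE M21 (GRCm38, the assembly of mm10), which matched 34490 identifiers.

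Values were tested as log2(FPKM + 1) with limma 3.58.1 with trend in R 4.3.3, over the 11500 genes that averaged 0.5 FPKM or more, adjusted over all of them by Benjamini-Hochberg, and called at an adjusted p below 0.05. This scale understates changes of low genes. Differences are knockout minus GFP-Rgnef, and "fell" and "rose" refer to the knockout. Tables and plots used Python 3.11.15, pandas 2.3.3 and matplotlib 3.10.9. Whole reads were recovered from the FPKM of all 19655 genes above 0, at a gene length that made every value whole within 0.02 reads. The reads summed to 99.77% to 99.85% of the implied depths. The fit was also run on simulated libraries, which held no shift shared by libraries of the same number. The outcome of that run is not reported here.

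The members, classes and lists were chosen with earlier results of these data known. Named with values were called members, the catalytic subunits, the 2 most abundant members of each class, those below the filter, called genes of the lists, and further members, picked after values were seen, to complete a class. Paaf1 of the lists was not analysed here, and the results of 2 further lists are not reported here. Alternatives covered the pseudocount, filter, scaling, trend, replicate block, voom, chromosome centring, symbols that begin with the pattern, and left-out libraries.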

Additional observations from a re-analysis of the deposited data

How the results depend on the processing

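The median difference of the members kept its sign and moved by less than the spread between replicates under every alternative run. Counts moved more. The number of members that fell, 15 in the report, was 8 without limma's trend and 8 after chromosome centring, and 2 to 11 with 1 library left out. Of all 11500 genes, 614 fell in the report, 502 without the trend, 384 after centring and 198 to 578 with 1 library left out. The number that rose, 1 in the report, was 0 after chromosome centring and 0 with chromosomes 7 and 9 left out (added after seeing the data), 2 without the libraries numbered 3, and 1 with any 1 library left out. With the replicate number as a block 29 members fell and 3 rose, while 1253 of all 11500 genes fell and 1517 rose. Same-numbered libraries had correlations of deviations of 0.321, -0.02 and 0.552 over 11500 genes, so the numbers were not taken as a pairing. Knockout 1 correlated better with GFP-Rgnef 2 (0.399). The pseudocount of 0.1, both other filters, both scalings, voom and the wider symbol rule left the number that rose at 1. Under these the number that fell was 10 with no filter, 11 with FPKM rescaled to the same sum per library, and 13 to 15 otherwise. These numbers lay within 1.5 times that of the report. Of all genes tested, 394 of 19655 fell with no filter and 492 of 11500 with the same sum per library. Leaving out chromosomes 7 and 9 gave 10 that fell, beside 471 of all 10042 genes tested then. After chromosome centring Psma1 stood at -0.19, Psma4 at -0.10, Psmc4 at -0.19 and Psmd13 at -0.072, which follows from the subtracted medians of chromosomes 7 and 9. With 1 library left out Psma1 ranged from -0.017 to 0.20 and Psmd10 from -0.24 to 0.029, and neither passed the test. Over all genes, voom on recovered reads called 577 lower and 994 higher, against 614 and 925 in the report. Depth limits Psmg3 most, with as few as 152 reads.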

Other observations

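Beyond the members, 2 protein-coding genes have symbols that begin with the same pattern. Psmc3ip, a factor of meiotic recombination named for its binding to Psmc3, had 14.7, 16.2 and 19.5 FPKM in knockout libraries against 16.2, 16.3 and 17.7 FPKM in GFP-Rgnef libraries. Its exons overlap Mlx on the opposite strand, which stood at 137.8% of its level. Psme2b had 3.32, 3.57 and 2.50 FPKM in knockout libraries against 3.44, 3.16 and 3.11 FPKM in GFP-Rgnef libraries. For both genes the groups overlapped. The 4 pseudogenes listed with such symbols (Psmb5-ps, Psmb6-ps, Psmb6-ps2 and Psmb7-ps2) were at 0 in every library.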
